A study of Caenorhabditis elegans with 9 samples.

Results

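The genes described here are 8 transcriptional regulators of the *C. elegans* epidermis. They are *lin-26*, *elt-1* and *elt-3*, which act in epidermal fate in general, *ceh-16*, *egl-18* and *elt-6*, which act in the seam cells, and *rnt-1* and *bro-1*, which act together in seam cell division. They were taken by their WormBase names, with no rule on measured values, from the 46875 genes of the deposited expression table. All 8 were expressed highly enough to be tested, as were 13105 genes in all.

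The RNA-seq experiment compared 3 genotypes, the wild-type strain N2 and mutants that carry *sma-3(wk30)* or *sma-9(ok1628)*, with 3 biological replicates of each. PolyA RNA was taken from whole late L2 larvae that had been synchronized as embryos and raised on plates at 20 °C under 21% O2, the same in all groups. The purpose was to find the genes whose expression depends on SMA-3, a Smad, and on SMA-9, the Schnurri homologue, in the DBL-1 pathway. Both mutations are strong loss-of-function or null alleles present in every cell of the animal, and each is represented by 1 allele.

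The worm epidermis is a set of multinucleate cells, the hypodermis, that secretes the cuticle, with a row of seam cells along each side. Seam cells divide asymmetrically at the larval stages, adding nuclei to the hypodermis while keeping a seam daughter, and they fuse with one another before adulthood. The BMP-like ligand DBL-1 sets body size through receptors and Smads that act in the hypodermis, a tissue whose fate several of the 8 regulators govern.

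Levels are given in CPM, read counts of a gene scaled so that libraries of different depth can be compared. Fold changes are differences of log2(CPM + 1), fitted with limma over all 9 libraries, so they understate the changes of genes with few reads. A gene was called when its p-value, adjusted by the Benjamini-Hochberg method over the 13105 genes, was at most 0.05. The RNA is of whole animals, so a lower level may reflect fewer cells of a type or less RNA in each cell, and these cannot be told apart.

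Libraries held 58889275 to 82735807 reads on genes, and 3 reads corresponded to 0.035 to 0.0503 CPM. The 8 regulators were represented by 145 to 7264 reads per library. The *sma-3* transcript fell from 21.4 to 26.5 CPM in wild-type to 12.6 to 14.2 CPM in *sma-3* worms (log2 fold change −0.76, limma adjusted p = 0.00101). The *sma-9* transcript was higher, not lower, in its own mutant (173 to 219 CPM against 87.6 to 119.1 CPM in wild-type, log2 fold change 1.03, limma adjusted p = 0.00202). For this reason *sma-9* is used below for libraries that carry this label, whatever the level of its own transcript. The library names carry numbers as well. Wild-type replicates 1 and 2 and *sma-9* replicate 1 have numbers up to 7, wild-type replicate 3 and *sma-9* replicates 2 and 3 have numbers from 8 to 10, and the *sma-3* libraries have numbers from 14 to 16. What these numbers stand for is not given in the sources used here.

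None of the 8 regulators was called in either mutant or between the mutants. In *sma-3* against wild-type, 0 of 8 were called by limma, against 21.5% of all tested genes, and 1 (*bro-1*) had an unadjusted p under 0.05, against 35.2%. In *sma-9* against wild-type, 0 of 8 were called, against 6.88%, and 1 (*rnt-1*) had an unadjusted p under 0.05, against 22.2%. In *sma-3* against *sma-9*, 0 of 8 were called, against 17.7%, and 1 (*bro-1*) had an unadjusted p under 0.05, against 32.3%. Fitting the recovered reads with voom weights also called 0 of 8 in each of the 3 comparisons.

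The intervals show how large a difference the data allow. On the log2(CPM + 1) scale, in *sma-3*, the 95% intervals of all 8 fold changes lay within 2-fold of wild-type, and the largest fold in any of them was 1.65. In *sma-9*, 7 of 8 lay within 2-fold, with *ceh-16* the exception (up to 2.17-fold). On the deposited log2 scale, which shrinks genes of few reads less, 8 of 8 lay within 2-fold in *sma-3* (at most 1.82-fold) and 6 of 8 in *sma-9*, with *ceh-16* reaching up to 2.71-fold and *rnt-1* up to 2.06-fold. The median absolute log2 fold change of the 8 was 0.17 in *sma-3* and 0.16 in *sma-9*, beside 0.19 and 0.14 over all tested genes. Their median standard error, 0.15, was larger than the 0.12 of all tested genes.

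**Figure D1:**
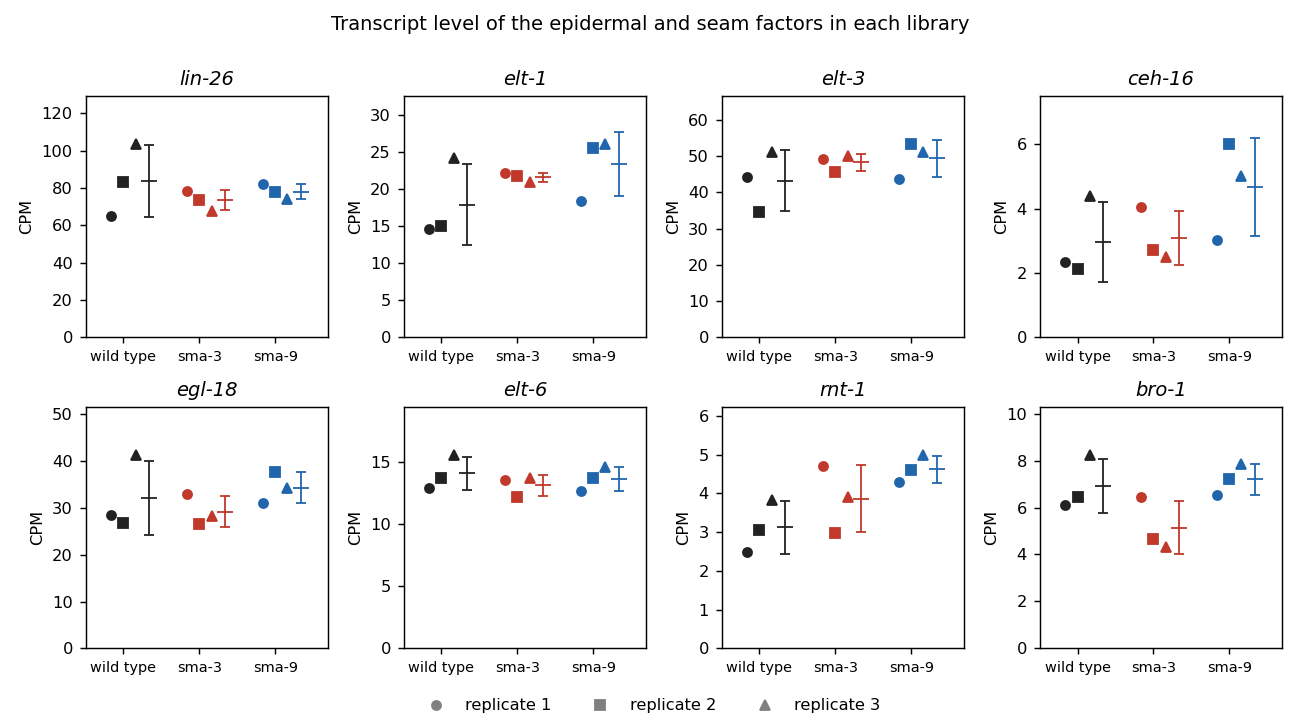
Level of each of the 8 regulators, in CPM on a linear axis from 0, in each library of wild-type (black), *sma-3* (red) and *sma-9* (blue) worms, with the mean and SD of 3 replicates beside the points. Wild-type replicate 3 (triangle) is the highest wild-type library in all 8 panels, and the *sma-9* libraries lie wholly above wild-type only for *rnt-1*.

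Among the regulators of epidermal fate in general, *lin-26* encodes a zinc-finger protein needed to make and keep epidermal cells. The gene (WBGene00003012) lies on chromosome II from 7682198 to 7684764 in WBcel235, on the plus strand, and shares 166 bases with its neighbour *lir-1* on the same strand, so reads there could belong to either. It had 64.8, 83.1 and 104 CPM in wild-type replicates 1 to 3, 78.4, 73.7 and 67.8 CPM in *sma-3* and 82.4, 77.7 and 74.1 CPM in *sma-9*. All 6 mutant values lay inside the wild-type range. On the log2 scale *lin-26* differed from wild-type by −0.17 in *sma-3* (SE 0.15, 95% interval −0.50 to 0.16, limma adjusted p = 0.454) and −0.08 in *sma-9* (−0.41 to 0.25, limma adjusted p = 0.806). The overlapping *lir-1* was not called either (log2 fold change −0.07 and 0.12).

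*elt-1* encodes a GATA factor at the top of the epidermal programme, which is also needed in seam cells. The gene (WBGene00001249; chromosome IV, 9614995 to 9620280, plus strand) had 14.5, 14.9 and 24.2 CPM in wild-type, 22.1, 21.7 and 20.9 CPM in *sma-3* and 18.4, 25.5 and 26.0 CPM in *sma-9*. Every mutant library was above wild-type replicates 1 and 2, but wild-type replicate 3 was above all 3 *sma-3* libraries and *sma-9* replicate 1, so the groups overlapped. The log2 fold change was 0.29 in *sma-3* (SE 0.19, −0.14 to 0.72, limma adjusted p = 0.311) and 0.39 in *sma-9* (−0.04 to 0.82, limma adjusted p = 0.275). This result rested on 1 library. Without wild-type replicate 3, *elt-1* was called higher in *sma-3* (0.52, limma adjusted p = 0.0271, when 3279 of 13065 genes were called) and in *sma-9* (0.61, limma adjusted p = 0.0255, when 11.9% were).

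*elt-3* encodes a GATA factor that acts after *elt-1* in the hypodermis and is not active in the seam. The gene (WBGene00001251; chromosome X, 13934874 to 13941216, plus strand) had 44.1, 34.5 and 51.2 CPM in wild-type, 49.2, 45.7 and 49.99 CPM in *sma-3* and 43.7, 53.4 and 51.2 CPM in *sma-9*. The *sma-3* values lay within the wild-type range, *sma-9* replicate 2 stood above it, and *sma-9* replicate 3 was level with the highest wild-type library. Fitted log2 fold changes of *elt-3* were 0.17 in *sma-3* (SE 0.14, −0.13 to 0.48, limma adjusted p = 0.404) and 0.20 in *sma-9* (−0.10 to 0.50, limma adjusted p = 0.433).

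Among the seam regulators, *ceh-16* encodes the worm engrailed protein, which keeps seam cells from fusing with the hypodermis. The gene (WBGene00000439; chromosome III, 8622735 to 8626314, plus strand) overlaps 57 bases of *polk-1* on the other strand. It had 2.35, 2.136 and 4.41 CPM in wild-type, 4.06, 2.72 and 2.49 CPM in *sma-3* and 3.03, 6.02 and 5.01 CPM in *sma-9*. The highest wild-type library stood above 1 of the 3 *sma-9* libraries, and 1 library of each genotype stood apart from its fellows. With 145 reads in wild-type replicate 2 and 309 in wild-type replicate 3, exact Poisson 95% intervals of their levels were 1.80 to 2.51 and 3.93 to 4.93 CPM. These intervals cover counting error only and did not overlap. The libraries were picked as the lowest and highest of wild-type, and the cause of this gap was not tested. Fitted log2 fold changes of *ceh-16* were 0.07 in *sma-3* (SE 0.26, −0.52 to 0.66, limma adjusted p = 0.878) and 0.53 in *sma-9* (−0.06 to 1.12, limma adjusted p = 0.280), the widest intervals of the 8. Without strand information, reads of *polk-1* and *ceh-16* over the shared bases cannot be told apart, and *polk-1* was not called in either mutant (−0.01 and 0.24).

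*egl-18* and *elt-6* encode related GATA factors that act in the seam daughter after Wnt signalling, and lie next to each other on chromosome IV, both on the plus strand. *egl-18* (WBGene00001186; 1902322 to 1917840) ends 136 bases before *elt-6* (WBGene00001253; 1917977 to 1921643). *egl-18* had 28.5, 26.7 and 41.3 CPM in wild-type, 32.9, 26.6 and 28.2 CPM in *sma-3* and 30.99, 37.7 and 34.2 CPM in *sma-9*. As for *elt-1*, wild-type replicate 3 stood apart, here above all 6 mutant libraries. *elt-6* varied less, with 12.97, 13.8 and 15.6 CPM in wild-type, 13.5, 12.2 and 13.8 CPM in *sma-3* and 12.7, 13.7 and 14.6 CPM in *sma-9*.

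Neither of the neighbouring GATA genes was called. The log2 fold change of *egl-18* was −0.11 in *sma-3* (SE 0.16, −0.47 to 0.24, limma adjusted p = 0.649) and 0.11 in *sma-9* (−0.24 to 0.47, limma adjusted p = 0.735). That of *elt-6* was −0.09 in *sma-3* (SE 0.096, −0.31 to 0.13, limma adjusted p = 0.548) and −0.04 in *sma-9* (−0.26 to 0.18, limma adjusted p = 0.849), the narrowest intervals of the 8. Per kilobase of exon, *egl-18* was at 1.88 ± 0.297 times the level of *elt-6* in wild-type (SD, n = 3), 1.85 ± 0.162 times in *sma-3* and 2.09 ± 0.174 times in *sma-9*, and these ranges overlapped.

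*rnt-1*, the worm RUNX factor, and *bro-1*, its CBF-beta partner, promote seam cell division, and RNT-1 is known to repress the CDK inhibitor gene *cki-1*. *rnt-1* (WBGene00004393; chromosome I, 5776093 to 5788611, plus strand) had 2.48, 3.06 and 3.84 CPM in wild-type, 4.71, 2.99 and 3.902 CPM in *sma-3* and 4.29, 4.60 and 4.99 CPM in *sma-9*. The 3 *sma-9* libraries were all above the 3 wild-type libraries, whereas 1 *sma-3* library lay within the wild-type range. For *rnt-1* the log2 fold change was 0.24 in *sma-3* (SE 0.16, −0.12 to 0.59, limma adjusted p = 0.330) and 0.46 in *sma-9* (0.10 to 0.82, limma adjusted p = 0.128). Separation of the *sma-9* from the wild-type values was found for *rnt-1* alone, 1 of the 8, and for 22.2% of all tested genes. In *sma-3* against wild-type this held for 0 of 8 regulators, against 41.4% of all genes.

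*bro-1* (WBGene00000272; chromosome I, 5186926 to 5189240, plus strand) had 6.09, 6.47 and 8.23 CPM in wild-type, 6.45, 4.65 and 4.34 CPM in *sma-3* and 6.54, 7.21 and 7.84 CPM in *sma-9*. *sma-3* replicates 2 and 3 were the lowest of the 9 libraries, and *sma-3* replicate 1 fell among the wild-type values but below all 3 *sma-9* values. For *bro-1* the log2 fold change was −0.37 in *sma-3* (SE 0.15, −0.71 to −0.03, limma adjusted p = 0.112) and 0.05 in *sma-9* (−0.29 to 0.40, limma adjusted p = 0.871). Between the mutants the groups did not overlap, with a log2 difference of −0.43 (−0.77 to −0.09, limma adjusted p = 0.0822). Such a separation was found for *bro-1* alone, 1 of the 8, and for 42.4% of all tested genes.

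Here too single libraries decided the call. Without *sma-3* replicate 1, *bro-1* was called lower in *sma-3* than in wild-type (−0.52, limma adjusted p = 0.0453, when 13.4% of all genes were called) and lower than in *sma-9* (−0.57, limma adjusted p = 0.0361). Without wild-type replicate 3, *rnt-1* was called higher in *sma-9* (0.58, limma adjusted p = 0.0486, when 11.9% were). In the other fits run, which left out another library or changed the scaling, filter, pseudocount or model, 0 of the 8 were called.

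**Figure D2:**
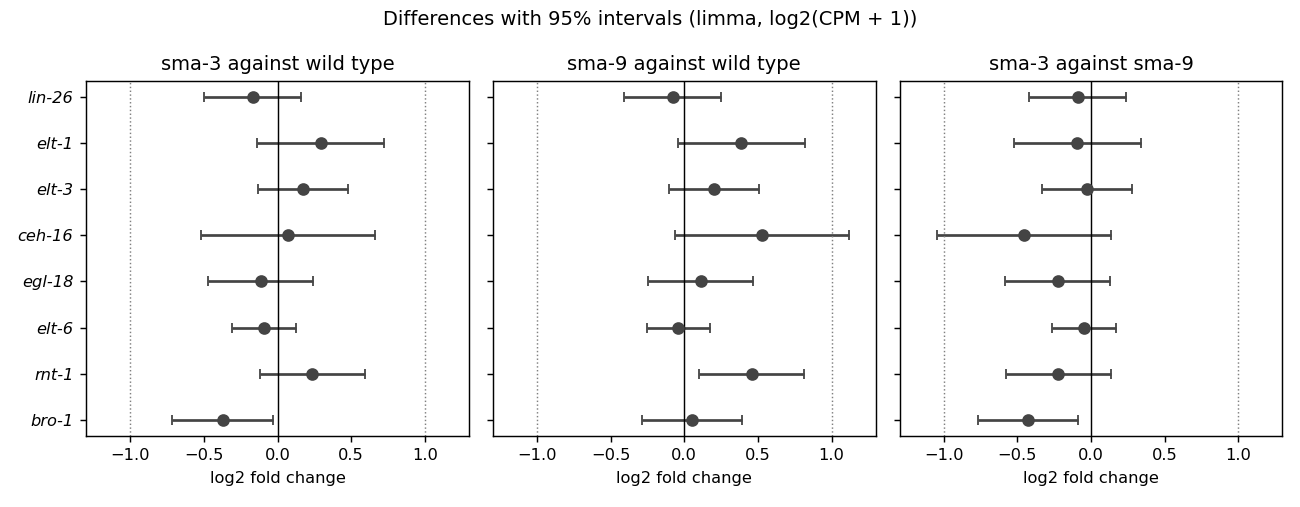
Fitted log2 fold change (dot) and 95% interval (bar) of each regulator in the 3 comparisons, from limma on log2(CPM + 1) with 3 libraries per genotype, where dotted lines mark 2-fold. Only the intervals of *bro-1* in *sma-3* against wild-type (−0.71 to −0.03), *rnt-1* in *sma-9* against wild-type (0.10 to 0.82) and *bro-1* in *sma-3* against *sma-9* (−0.77 to −0.09) leave out 0, and none of these passed adjustment over all genes.

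The RUNX partners were also set against each other. Per kilobase of exon, *rnt-1* was at 0.296, 0.344 and 0.338 times the level of *bro-1* in wild-type, 0.530, 0.466 and 0.652 times in *sma-3* and 0.476, 0.463 and 0.461 times in *sma-9*. All 6 mutant values were above all 3 wild-type values, and those of the mutants overlapped. The mean ratio was 0.326 ± 0.0262 in wild-type (SD, n = 3), 0.549 ± 0.0945 in *sma-3* and 0.467 ± 0.00833 in *sma-9*, log2 differences of 0.74 and 0.52 from wild-type. The ratio is unaffected by the scaling between libraries, and these differences stayed between 0.61 and 0.85 in *sma-3* and between 0.45 and 0.56 in *sma-9* when each library was left out in turn. The pair was singled out after its values were seen, and both mutants are set against the same wild-type libraries. The ratio, its separation and the leave-one-out ranges all rest on those same values. They are given as a description, and no test is reported. Among single tested genes, 41.4% did not overlap between *sma-3* and wild-type and 22.2% between *sma-9* and wild-type. The share over other pairs of genes was not computed. In *sma-3* it is made of a lower *bro-1* mean and a higher *rnt-1* mean, and in *sma-9* of a higher *rnt-1* mean alone, none of them called.

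**Figure D3:**
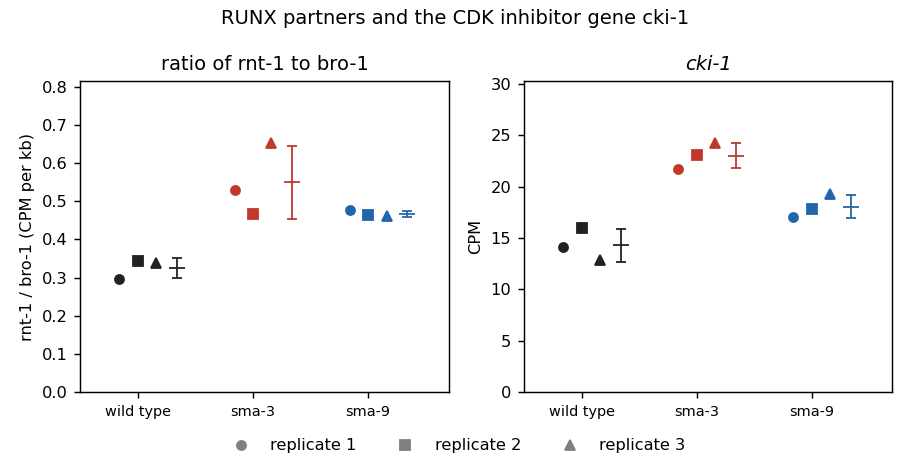
Left, ratio of *rnt-1* to *bro-1* (both in CPM per kilobase of exon) in each library, and right, level of *cki-1* in CPM, with the mean and SD of 3 replicates beside the points and both axes linear from 0. The wild-type ratios (0.296 to 0.344) lie below those of *sma-3* (0.466 to 0.652) and *sma-9* (0.461 to 0.476), and for *cki-1* the 3 genotypes occupy separate ranges. A link between the ratio and *cki-1* was not tested.

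The order of the levels, per kilobase of exon, was nearly the same in all genotypes. In wild-type it ran from *lin-26* (39.4 ± 9.13 CPM per kb, SD, n = 3) over *elt-3* (29.5 ± 5.71), *egl-18* (19.1 ± 4.70), *elt-6* (10.04 ± 0.957), *elt-1* (8.08 ± 2.46), *bro-1* (6.07 ± 1.00) and *ceh-16* (3.21 ± 1.36) to *rnt-1* (1.99 ± 0.431). The ranges over replicates of neighbours in this order overlapped, except between *egl-18* and *elt-6* and between *bro-1* and *ceh-16*. In both mutants *elt-1* ranked above *elt-6*, with overlapping ranges (9.74 ± 0.267 against 9.38 ± 0.601 CPM per kb in *sma-3*, 10.5 ± 1.94 against 9.74 ± 0.679 in *sma-9*), and the order was otherwise that of wild-type.

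Differences among replicates were as large as those among genotypes for most of the 8, and they ran the same way in most of them. Wild-type replicate 3 was the highest wild-type library for 8 of 8 regulators, as it was for 38.3% of all tested genes. *sma-9* replicate 1 was the lowest *sma-9* library for 7 of 8 (37.7% of all genes), *lin-26* being the exception. *sma-3* replicate 1 was the highest *sma-3* library for 6 of 8 (32.3% of all genes). In wild-type the highest library exceeded the lowest by a median factor of 1.54 over the 8, beside 1.27 over all tested genes. In *sma-3* this factor was 1.20 beside 1.13, and in *sma-9* 1.21 beside 1.23.

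These replicates also differed in genes that follow the moulting cycle, whose transcripts rise and fall within every larval stage. The summed level of 12 such genes was 6775, 7231 and 9553 CPM in wild-type replicates 1 to 3, 4648, 3728 and 3404 CPM in *sma-3* and 5822, 6536 and 6039 CPM in *sma-9*. The summed level of the 8 regulators was 176, 185 and 252 CPM in wild-type, 211, 190 and 191 CPM in *sma-3* and 202, 226 and 218 CPM in *sma-9*. In each genotype the library with the highest sum was the same for both lists. This match was not particular to the moulting genes. The same libraries also had the highest sums of the other epidermal regulators, the Wnt genes and the seam markers described below. Not every list matched, as the germline markers were highest in wild-type replicate 1 and *sma-3* replicate 3. Single genes did not all follow the sums of their lists. In wild-type, *noah-1* and *mlt-11* were highest in replicate 3, but *mlt-8* and *mlt-10* in replicate 2. In *sma-9*, replicate 2 had the highest sums, but replicate 3 was highest for 4 regulators and replicate 2 for 3. Between genotypes the sums did not run together, as the moulting sums of *sma-3* lay below all those of wild-type whereas the sums of the regulators overlapped. The part of the moulting cycle in the levels of the regulators was not tested.

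In the *sma-9* comparison the replicates also divide by library number, and not all regulators differed the same way in both sets of numbers. With numbers up to 7, the log2 difference of *sma-9* from wild-type was 0.49 for *rnt-1*, 0.31 for *ceh-16* and 0.30 for *elt-1*. With numbers from 8 to 10 it was 0.26, 0.26 and 0.09. The differences of *lin-26* (0.16 and −0.44), *egl-18* (0.16 and −0.19) and *bro-1* (0.05 and −0.12) had opposite signs in the sets, each of which holds 3 libraries. A further fit used the wild-type and *sma-9* libraries only, with the set (numbers up to 7, or from 8 to 10) as a term of the model. In that fit the log2 fold change was 0.38 for *rnt-1* (limma adjusted p = 0.133), 0.29 for *ceh-16* (limma adjusted p = 0.200) and 0.20 for *elt-1* (limma adjusted p = 0.236). For *sma-3*, library number and genotype cannot be told apart, as all 3 *sma-3* libraries have higher numbers than the rest.

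The genes around the 8 regulators were examined from lists of their partners, targets and tissue products. Of 12 tested other regulators of the epidermis, 0 were called by limma in *sma-3*, in *sma-9* or between the mutants, beside 21.5%, 6.88% and 17.7% of all genes. At an unadjusted p under 0.05 there were 2, 0 and 3, and voom weights called 0 in each comparison as well. The largest difference was that of *grh-1*, a grainyhead factor of the epidermis, whose *sma-3* values of 29.4 to 41.5 CPM were below the 63.1 to 70.3 CPM of wild-type (log2 fold change −0.83, limma adjusted p = 0.119). Values of *sma-3* and wild-type did not overlap for 41.4% of all tested genes. In *sma-9* the replicates of *grh-1* lay far apart, at 108.5, 44.1 and 34.8 CPM (−0.25, limma adjusted p = 0.730). The T-box genes *tbx-8* and *tbx-9*, known from the embryonic epidermis, had at most 0.0856 CPM and were not tested, with *tbx-8* at 0 in all 6 mutant libraries and *tbx-9* at 0 in 5 of 9 libraries. Other GATA factors were mostly out of reach, since 3 of 7 were tested, *end-1*, *end-3* and *med-2* had at most 0.413 CPM (*end-3* at 0 in 1 library), and *med-1* was at 0 in all libraries but 1. The intestinal GATA factor *elt-2* fell in *sma-9* by 0.36 on the log2 scale (limma adjusted p = 0.0149), as did all 4 tested genes of an intestinal list to which it belongs, and that call was lost in 5 of 17 alternatives.

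Wnt signalling sets the asymmetry of seam divisions, and its components were mostly not called. Of 24 tested genes, 1 was lower and 0 were higher in *sma-3*, beside 12.2% and 9.36% of all genes. In *sma-9*, 0 were called by limma or voom (4 at an unadjusted p under 0.05), beside 6.88% of all genes by limma. Against *sma-9*, 1 was higher and 2 were lower in *sma-3*, beside 8.56% and 9.1% of all genes. The gene that fell in *sma-3* was *cwn-2*, a Wnt ligand, from 20.1 to 22.01 CPM in wild-type to 14.1 to 16.2 CPM (log2 fold change −0.44, limma adjusted p = 0.00685). Between the mutants, *cwn-2* (−0.32) and the ligand *cwn-1* (−0.28) were lower and the kinase gene *kin-19* (0.24) was higher in *sma-3*, and each of these 3 calls was lost in 8 to 10 of 16 alternatives. The median log2 fold change of the list was 0.02 in *sma-3* and −0.0006 in *sma-9*.

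Of 18 tested cell cycle genes, 2 were higher in *sma-3*, beside 9.36% of all genes, and 0 were lower, beside 12.2%. The gene that rose most was *cki-1*, the CDK inhibitor named above as a target of RNT-1, with 14.1, 15.9 and 12.8 CPM in wild-type, 21.8, 23.1 and 24.2 CPM in *sma-3* and 17.1, 17.9 and 19.3 CPM in *sma-9*. The ranges of the 3 genotypes did not overlap. Pairwise, this held for 41.4% of all tested genes in *sma-3* against wild-type, 22.2% in *sma-9* against wild-type and 42.4% between the mutants. The log2 fold change was 0.66 in *sma-3* (SE 0.09, limma adjusted p = 0.00213), a call kept in every alternative, and 0.32 in *sma-9*, which was not called (limma adjusted p = 0.081). *rnt-1* itself, not called, had log2 fold changes of 0.24 in *sma-3* and 0.46 in *sma-9*. A link between the RUNX pair and the level of *cki-1* was not tested. *fzr-1*, which encodes an activator of the anaphase-promoting complex, also rose in *sma-3* (0.31, limma adjusted p = 0.016), though not without wild-type replicate 1, *sma-3* replicate 2 or *sma-3* replicate 3 (adjusted p up to 0.0749). In *sma-9*, 0 of 18 were called by limma or voom and 3 had an unadjusted p under 0.05, while 3.02% of all genes were called higher and 3.85% lower. Between the mutants *fzr-1* (0.50) and *cki-1* (0.33) were higher and *lin-35*, the Rb gene (−0.36), was lower in *sma-3*, beside 8.56% and 9.1% of all genes, and the calls of *cki-1* and *lin-35* were lost in 9 and 7 of 16 alternatives.

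Lists of epidermal products held called genes in *sma-3*. Of 16 tested genes of junctions and cell fusion, 3 fell and 0 rose in *sma-3*, beside 12.2% of all genes lower and 9.36% higher. They were *mua-6*, an intermediate filament gene (log2 fold change −0.86, limma adjusted p = 0.000508), *hmr-1*, the cadherin gene (−0.45, limma adjusted p = 0.0113, up to 0.0883 without *sma-3* replicate 2 or with equal library totals), and *let-805*, which encodes a protein of the muscle attachments (−0.45, limma adjusted p = 0.0496, lost in 11 of 16 alternatives). *mua-6* also fell in *sma-9* (−0.35, limma adjusted p = 0.045, lost in 12 of 17 alternatives), and between the mutants it was the lower in *sma-3* (−0.52). *eff-1*, the fusogen gene that *ceh-16* is known to repress, had 37.8, 34.6 and 65.9 CPM in wild-type, 38.0, 31.2 and 32.5 CPM in *sma-3* and 39.3, 55.2 and 52.5 CPM in *sma-9* and was not called, and it was named after its values were seen.

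Of 6 genes used as seam cell markers, 3 rose, 2 fell and 1 was not called in *sma-3*, beside 9.36% of all genes higher and 12.2% lower. In *sma-9*, 0 were called by limma or voom (1 at an unadjusted p under 0.05), beside 6.88% of all genes by limma. The hedgehog-related genes *grd-13* (log2 fold change 1.42, limma adjusted p = 0.00332), *grd-10* (1.32, limma adjusted p = 0.00332) and *grd-3* (1.07, limma adjusted p = 0.0141) rose, whereas *wrt-10* (−1.11, limma adjusted p = 0.00358) and *wrt-2* (−1.06, limma adjusted p = 0.0023) fell. The call of *grd-3* was lost without *sma-3* replicate 2 or 3 (adjusted p up to 0.0613). Between the mutants, *grd-13* (1.21) and *grd-10* (0.98) were higher and *nhr-73* (−1.12), *wrt-10* (−1.03) and *wrt-2* (−0.54) lower in *sma-3*, and the calls of *grd-10*, *nhr-73* and *wrt-2* were lost in 2, 4 and 6 of 16 alternatives. Levels of *wrt-10* were 387, 303 and 433 CPM in wild-type and 222, 150 and 149 CPM in *sma-3*, and those of *grd-13* were 65.7, 43.1 and 31.6 CPM and 102, 118.7 and 147 CPM. The nuclear receptor gene *nhr-73* had 6.58, 6.60 and 11.1 CPM in wild-type and 5.96, 3.96 and 3.27 CPM in *sma-3* (−0.75, limma adjusted p = 0.0557). The summed seam markers gave 651 to 811 CPM in wild-type, 538 to 602 CPM in *sma-3* and 640 to 706 CPM in *sma-9*, and none of the 6 was at 0 in any library. This sum adds genes that rose in *sma-3* to genes that fell. Its most abundant genes were *wrt-10* and *wrt-2*, with means of 374 and 254 CPM in wild-type.

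Of 5 hypodermal collagen genes, 1 rose and 1 fell in *sma-3*, beside 9.36% of all genes higher and 12.2% lower. At an unadjusted p under 0.05 there were 3, beside 35.2% of all genes. These included *rol-6*, which was not called, with 497 to 647 CPM in *sma-3* and 776 to 1485 CPM in wild-type (log2 fold change −0.85, limma adjusted p = 0.0718). In *sma-9*, 0 were called by limma or voom (0 at an unadjusted p under 0.05), beside 6.88% of all genes by limma. *dpy-7* fell from 451, 412 and 499 CPM in wild-type to 239, 175 and 158 CPM (log2 fold change −1.26, limma adjusted p = 0.000838), and *col-12* rose from 113, 72.3 and 27.1 CPM to 196, 308 and 316 CPM (2.12, limma adjusted p = 0.00975). Both were also called between the mutants (−1.005 and 1.71), the call of *col-12* being lost in 6 of 16 alternatives. The same *sma-3* libraries had 48.3 ± 2.30 CPM of *elt-3* and 73.3 ± 5.35 CPM of *lin-26* (SD, n = 3), beside 43.3 ± 8.38 and 83.8 ± 19.4 CPM in wild-type. Of the 12 genes of the moulting cycle, 8 fell and 0 rose in *sma-3*, beside 12.2% of all genes lower and 9.36% higher. In *sma-9*, 2 of them fell, beside 3.85% of all genes. The largest falls in *sma-3* were those of *qua-1* (−1.53), *mlt-11* (−1.25), *noah-1* (−1.10), *noah-2* (−1.09), *nas-37* (−0.95) and *ptr-4* (−0.93), and those called in *sma-9* were *lin-42* (−0.57) and *nas-37* (−0.53). The calls of *mlt-11* and *noah-1* were lost without *sma-3* replicate 2 or 3 and with quantile normalization (adjusted p up to 0.0567 and 0.0764), and those of *lin-42* and *nas-37* in *sma-9* in 10 and 8 of 17 alternatives. Between the mutants *qua-1* (−1.04), *ptr-4* (−0.71), *mlt-9* (−0.64) and *nas-37* (−0.42) were lower in *sma-3*, and the calls of *ptr-4*, *mlt-9* and *nas-37* were lost in 4, 2 and 8 of 16 alternatives.

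**Figure D4:**
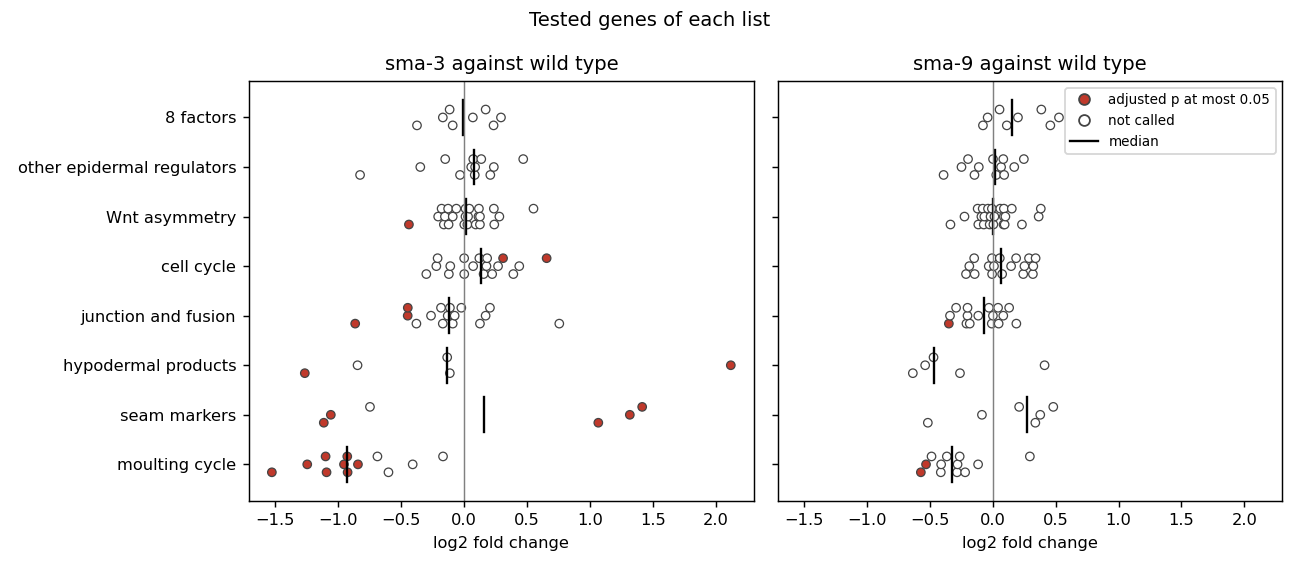
Fitted log2 fold change (limma, log2(CPM + 1)) of every tested gene of each list in *sma-3* and *sma-9* against wild-type, with filled points for called genes (adjusted p up to 0.05) and a bar at the median of the list. None of the 8 regulators in the top line is called in either mutant, while 5 of 6 seam markers and 8 of 12 moulting cycle genes are called in *sma-3*. Of all tested genes, 21.5% are called in *sma-3* and 6.88% in *sma-9*.

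The other tissues of the worm were checked with marker lists. Of the body muscle, neuron and germline markers, 0 were called by limma in *sma-3* or *sma-9* against wild-type, beside 21.5% and 6.88% of all genes. In each mutant 1, 1 and 0 had an unadjusted p under 0.05, and 0 were called by voom. The summed intestinal markers were 2060 to 2414 CPM in wild-type, 2033 to 2127 CPM in *sma-3* and 1423 to 1738 CPM in *sma-9*. All 4 tested intestinal markers were called lower in *sma-9*, beside 3.85% of all genes. Of these calls that of *ges-1* was lost in 4, *act-5* in 6 and *ifb-2* in 7 of 17 alternatives. The summed pharyngeal markers were 853 to 1241 CPM in wild-type, 1064 to 1113 CPM in *sma-3* and 486 to 723 CPM in *sma-9*, where 1 of 4 fell (*myo-2*, log2 fold change −0.88, limma adjusted p = 0.0142, lost in 2 of 17 alternatives). Between the mutants *elt-2* (0.30), *ifb-2* (0.78), *myo-2* (0.88), *myo-1* (0.77) and the muscle gene *unc-15* (0.39) were higher in *sma-3*, and the calls of *elt-2*, *myo-1* and *unc-15* were lost in 6, 6 and 8 of 16 alternatives. None of the markers was at 0 in any library. Their part in the levels of the 8 regulators in *sma-9* was not tested.

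Between the mutants, the levels of all 8 regulators were lower on average in *sma-3* than in *sma-9*. Log2 differences ran from −0.46 (*ceh-16*) to −0.03 (*elt-3*), with a median of −0.16, beside −0.02 over all tested genes. *elt-3* and *elt-6* changed sign when 1 library was left out. The regulators also varied together over replicates, with *sma-9* replicate 1 the lowest *sma-9* library for 7 of 8, so they are not 8 separate observations. The median over the 8 against wild-type was −0.01 in *sma-3* and 0.16 in *sma-9*, beside −0.01 and 0.0045 over all tested genes. With the library total in place of the authors' scaling, the median of all tested genes moved to 0.07 in *sma-3* and 0.11 in *sma-9*, and *lin-26* and *elt-6* were then slightly above wild-type in *sma-9*.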

How the data were processed

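Total RNA of whole worms was made into polyA-selected paired-end libraries, and the authors mapped the reads to the WS245 genome and counted them per gene with STAR (version 2.5.1a), then normalized the counts with edgeR. The strand setting is not given in the sources used here. They deposited log2 CPM values with a small prior count added. This prior was removed, and whole reads were recovered for 100% of values (within 0.05 read of a whole number). Normalization factors in the deposited values ranged from 0.924 to 1.08.

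Names, positions and exon lengths came from WBcel235 (46821 of 46875 identifiers matched). Genes that reached 1 CPM in 3 or more of the 9 libraries were fitted as log2(CPM + 1) in limma (version 3.58.1, R version 4.3.3, lmFit, contrasts.fit and eBayes with trend) with 1 coefficient per genotype, and two-sided p-values were adjusted over all 13105 tested genes within each comparison. The design reserves a count test for raw counts, and the deposited values are logarithms. The authors call the replicates biological. The scripts were tested on simulated data. Python 3.11.15 with matplotlib 3.10.9 and numpy 2.4.6 made tables and plots.

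The 8 regulators and all lists were chosen with earlier results of these data known, so no list is independent evidence. Named genes were all 8 regulators, *sma-3* and *sma-9*, from each list the called genes of each comparison (largest change first, at most 6) and genes at 0, and, for a regulator called against wild-type, the 2 genes most correlated with it, of which there were none. The neighbours *lir-1* and *polk-1*, and *grh-1*, *eff-1*, *end-1*, *med-2*, *rol-6* and *nhr-73* in *sma-3*, were named after their values were seen. Of 131 list genes 130 were matched by name.

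Alternatives were other pseudocounts, filters, scalings and models, a replicate block and each replicate left out in turn. For *sma-9* against wild-type, a term for the set of library numbers was also used, on the libraries of these genotypes only.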

Additional observations from a re-analysis of the deposited data

How the results depend on the processing

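Of 386 fold changes of the 8 regulators under the alternatives, 363 kept their direction and side of the threshold, 5 were called where the reported fit made no call, and 18 changed sign. The number of regulators called, 0 in each comparison, stayed 0 under all alternatives other than leaving out single libraries, where it ranged from 0 to 1 in *sma-3* against wild-type, 0 to 2 in *sma-9* against wild-type and 0 to 1 in *sma-3* against *sma-9*. The sign changed for *ceh-16* in *sma-3* with quantile normalization (−0.037), and for *lin-26* (0.040) and *elt-6* (0.070) in *sma-9* with equal library totals. It also changed for *bro-1* (−0.032) and *egl-18* (−0.016) in *sma-9* with the set of library numbers as a term. With single libraries left out, log2 fold changes ranged in *sma-3* against wild-type from −0.093 to 0.32 for *ceh-16* and −0.23 to 0.074 for *egl-18*. In *sma-9* they ranged from −0.25 to 0.086 for *lin-26*, −0.022 to 0.17 for *bro-1*, −0.0039 to 0.30 for *egl-18* and −0.095 to 0.029 for *elt-6*. Between the mutants they ranged from −0.11 to 0.028 for *elt-3* and −0.099 to 0.00039 for *elt-6*, and the log2 ratio of *egl-18* to *elt-6* in *sma-3* against wild-type ranged from −0.13 to 0.098. The cause was not tested.

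Deviations of libraries with the same replicate number had correlations from −0.63 to 0.40, and 1 of 9 libraries correlated best with a library of its own replicate number. With 3 libraries a genotype, these values cannot decide whether replicate numbers in the sample titles pair the samples. The reported fit did not pair them. With a replicate block, 0 of 8 regulators were called in each comparison and 24 of 24 fold changes kept their direction and side of the threshold. Over all genes, the block lowered the calls to 2081, 613 and 1563. Fits with edgeR and DESeq2 on the recovered reads had been listed and were not run. Voom weights on the recovered reads were added in their place after the data were seen.

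With 3 libraries a genotype, the median standard error of the 8 regulators was 0.15 on the log2 scale. The fewest reads behind a value were 145 for *ceh-16* and 166 for *rnt-1*.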
